A study of Arabidopsis thaliana with 4 samples.

Results

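The plant circadian clock is a network of transcription factors that repress or activate one another through the day, and the photoperiod pathway reads day length from it to set flowering. Its genes were compared between bdt1 mutant seedlings and wild-type Col-0 seedlings. The 39 genes were picked by gene identifier from known roles in the clock and in day-length sensing, with earlier results of these data known. All 39 are among the 32548 genes of the table. They comprise the morning factors CCA1 and LHY with the CCA1 regulator CHE, 5 pseudo-response regulators (PRR) and the evening complex with BOA. They also hold 8 genes of the REVEILLE (RVE) family, 4 LNK genes and GI with the ZTL family. The rest are the outputs GRP7, GRP8, COR27 and AT4G33980, and CO, 2 CO-like genes and 4 CDF genes.

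The mutant libraries came from seedlings labelled bdt1-/- (btl1-/- in another label) in the Col-0 background, and the reference libraries from wild-type Col-0. All seedlings were 10 days old, raised at 22 °C on Murashige and Skoog plates under long days (light for 16 h, dark for 8 h). The submitters describe the 2 libraries per genotype as biological replicates. The sources used here give neither the hour of harvest nor the nature of the bdt1 allele. Library totals, recovered from the normalised values, ranged from 22914893 to 27435729 reads. As a check of the mutant, AT4G11560, the gene for a bromo-adjacent homology (BAH) protein, which background knowledge and not the table ties to BDT1, had 313 and 324 normalised reads in bdt1 against 1135 and 1117 in Col-0 (log2 fold change -1.82, SE 0.08, limma adjusted p = 3.9e-05).

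In the clock, CCA1 and LHY act around dawn and repress genes of the evening, among them TOC1. The PRR proteins follow one another through the day and repress CCA1 and LHY, and the evening complex of ELF3, ELF4 and LUX represses genes at night. RVE8 and its relatives, with the LNK co-activators, switch evening genes on. In the day-length branch, GI and FKF1 remove CDF repressors from CO, and CO activates FT, the mobile flowering signal.

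Of the clock and photoperiod genes, 4 differed between the genotypes past the test. PRR5, CHE and AT4G33980 were lower in bdt1 and BOA was higher, each by between 1.35-fold and 1.51-fold. Of 38 members tested (mean normalised count of at least 1), 1 rose and 3 fell at an adjusted p under 0.05 by limma over all genes. These are 2.63% and 7.89% of the members, 10.5% in either direction, whereas of all 23256 tested genes 1.2% rose, 0.856% fell and 2.06% were called in either direction. By the edgeR quasi-likelihood test on recovered counts the members gave the same 1 and 3, against 1.45% of all tested genes higher, 1.12% lower and 2.57% in either direction. The median log2 fold change was 0.01 over the members and 0.00 over all tested genes, with 19 members above 0 and 19 below. Because the members were chosen with earlier results of these data known, these shares and medians only describe them. In these seedling samples, fewer cells of a type and less RNA per cell cannot be told apart.

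PRR5, a pseudo-response regulator of the afternoon that represses CCA1 and LHY, had 314 and 341 normalised reads in bdt1, against 453 and 541 in Col-0. Both mutant libraries lay below both wild-type libraries. The log2 fold change was -0.60 (SE 0.11, limma adjusted p = 0.037), or 1.51-fold lower. CHE, a TCP-family factor known to repress CCA1, had 524 and 508 normalised reads in bdt1, against 688 and 706 in Col-0. The genotypes did not overlap and the replicates lay close together. CHE fell by 0.43 on the log2 scale (SE 0.08, adjusted p = 0.032), or 1.35-fold.

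AT4G33980 is listed with COR27 as the pair COR27/28, and RefSeq annotates it as an uncharacterised protein with no symbol. It had 252 and 251 normalised reads in bdt1, against 362 and 396 in Col-0. The mutant replicates were nearly equal and both were below Col-0. Its log2 fold change was -0.59, with an SE of 0.11 and a limma adjusted p = 0.032. BOA, the close relative of the evening-complex factor LUX, had 476 and 393 normalised reads in bdt1, against 294 and 278 in Col-0. Both mutant libraries were above both wild-type libraries, and the 2 mutant replicates were further apart than the 2 wild-type ones. Its log2 fold change was 0.60 (SE 0.12, adjusted p = 0.044), or 1.51-fold higher.

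BOA overlaps AT5G59580, on the opposite strand, over 1896 bases. AT5G59580 is listed at 0 in all 4 libraries. The sources used here do not say whether counting used the strand, so reads of these genes cannot be told apart.

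**Figure D1:**
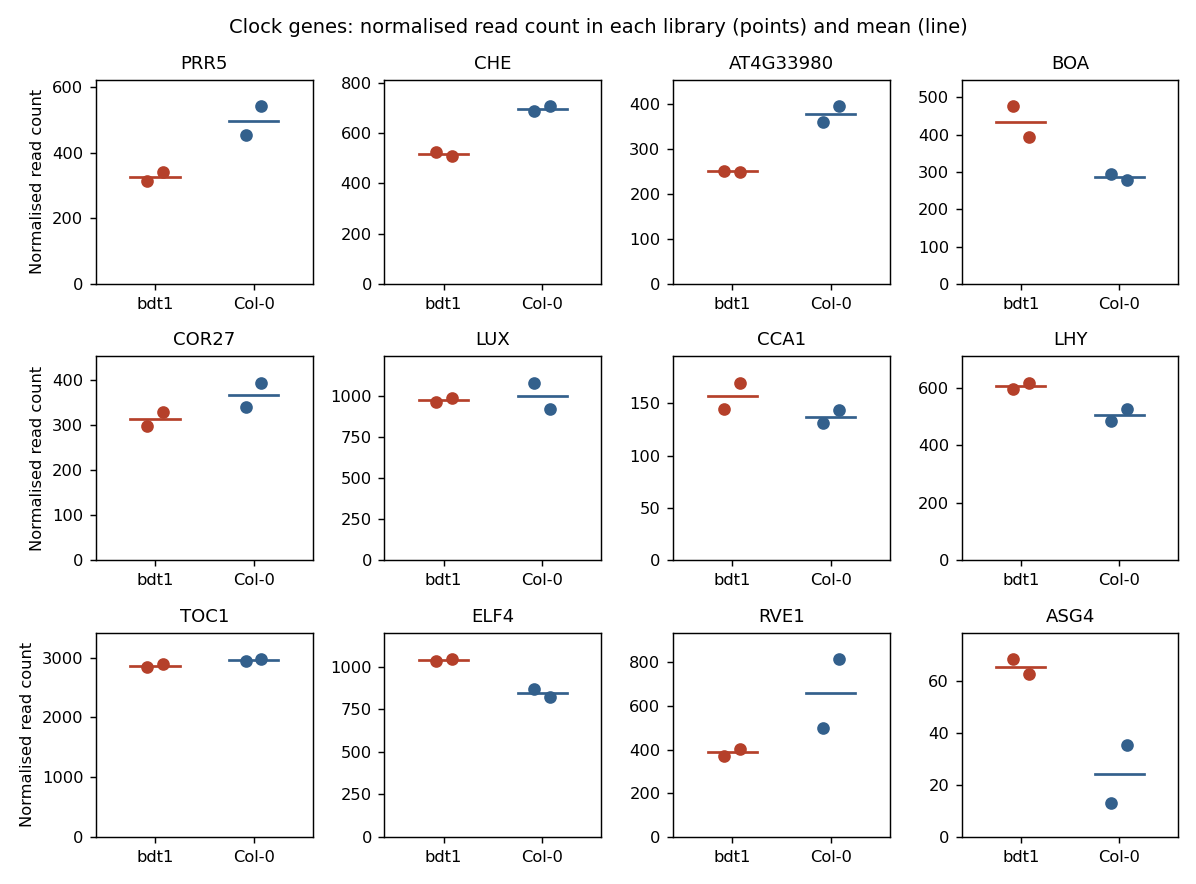
Normalised read count (vertical axes, starting at 0) of 12 clock genes in the 2 bdt1 and 2 Col-0 libraries, with points for libraries and lines for genotype means. PRR5, CHE and AT4G33980 lie lower in bdt1 and BOA higher, while LUX overlaps and RVE1 and ASG4 show wide gaps between the Col-0 libraries.

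The limma calls depended on Col-0 replicate 2 and on the variance model. Without Col-0 replicate 2 all 4 were lost (adjusted p = 0.0995 for PRR5, 0.0727 for CHE, 0.0878 for AT4G33980 and 0.109 for BOA). Without bdt1 replicate 1 or bdt1 replicate 2 limma called 0 of all tested genes (1573 and 1611 at an unadjusted p under 0.05; edgeR called 501 and 584), so those fits say nothing on single genes. The log2 fold changes there were -0.54 and -0.66 for PRR5, -0.46 and -0.41 for CHE, -0.59 and -0.59 for AT4G33980 and 0.46 and 0.73 for BOA. All 4 were also lost when limma's mean-variance trend was left out (adjusted p = 0.191 to 0.286). The direction of each was the same in every fit run. With the edgeR quasi-likelihood test on recovered counts all 4 were called with all libraries (adjusted p = 0.020 to 0.028). Over its 4 leave-one-out fits the log2 fold changes ran from -0.72 to -0.47 for PRR5 and from -0.65 to -0.53 for AT4G33980. They ran from 0.46 to 0.74 for BOA and from -0.46 to -0.41 for CHE. Far more genes were called by edgeR without a Col-0 library than with all libraries, so a call kept there is not read as support. AT4G33980 was lost without bdt1 replicate 2 (adjusted p = 0.0507), BOA without bdt1 replicate 1 (adjusted p = 0.155), and CHE without bdt1 replicate 1 (adjusted p = 0.0573) or bdt1 replicate 2 (adjusted p = 0.119).

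The promoters of the 4 called genes and of LUX, the relative of BOA, are shown so that the called genes can be compared and BOA set beside its relative. Each is the 250 bases before the annotated gene start in the TAIR10.1 genome of RefSeq, 5′ to 3′ in the direction of the gene. Capitals mark the motifs searched on both strands, which were the evening element AAAATATCT, the CCA1 binding site AAAAAATCT, the G-box CACGTG, the LUX sites GATACG and GATTCG, and the TCP site GGTCCCAC. No 2 of these share a position in the sequences shown.
PRR5 (chr5:8358547-8358796, minus strand): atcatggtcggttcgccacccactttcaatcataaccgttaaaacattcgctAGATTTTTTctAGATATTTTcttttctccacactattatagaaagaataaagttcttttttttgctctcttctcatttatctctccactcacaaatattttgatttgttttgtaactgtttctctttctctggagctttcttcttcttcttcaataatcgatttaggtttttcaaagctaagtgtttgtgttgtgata
CHE (chr5:2680151-2680400, plus strand): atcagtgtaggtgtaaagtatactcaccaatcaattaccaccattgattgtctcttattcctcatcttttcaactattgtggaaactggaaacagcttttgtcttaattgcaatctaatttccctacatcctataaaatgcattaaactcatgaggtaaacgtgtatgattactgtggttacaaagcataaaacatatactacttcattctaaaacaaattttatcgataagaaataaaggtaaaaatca
BOA (chr5:24003638-24003887, plus strand): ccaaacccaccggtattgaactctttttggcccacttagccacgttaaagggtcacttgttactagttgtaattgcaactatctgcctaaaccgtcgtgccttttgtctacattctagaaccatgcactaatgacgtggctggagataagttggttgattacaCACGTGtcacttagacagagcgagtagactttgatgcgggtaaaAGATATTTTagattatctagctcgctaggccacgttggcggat
LUX (chr3:17182792-17183041, plus strand): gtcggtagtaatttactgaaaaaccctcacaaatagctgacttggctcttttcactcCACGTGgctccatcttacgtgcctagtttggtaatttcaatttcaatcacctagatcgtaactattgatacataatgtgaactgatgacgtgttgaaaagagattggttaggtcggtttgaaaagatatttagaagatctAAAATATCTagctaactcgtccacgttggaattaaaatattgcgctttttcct
AT4G33980 (chr4:16285230-16285479, minus strand): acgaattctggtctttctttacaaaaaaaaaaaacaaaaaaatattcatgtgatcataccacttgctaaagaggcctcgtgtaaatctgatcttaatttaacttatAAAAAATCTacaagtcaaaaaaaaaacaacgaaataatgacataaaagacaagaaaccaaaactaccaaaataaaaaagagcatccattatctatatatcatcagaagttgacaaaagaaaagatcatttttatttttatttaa

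PRR5 holds an evening element starting 187 bases before the start and a CCA1 binding site starting 198 bases before it, both on the minus strand relative to the gene. BOA and LUX both hold 1 evening element and 1 G-box, with the evening element starting 43 bases before the start in BOA and 53 in LUX. AT4G33980 holds 1 CCA1 binding site, and none of the searched letters is in the CHE window. Over the 39 members, 10 windows (25.6%) hold the evening element, against 2.36% of 27443 windows of protein-coding genes in the table. The G-box is in 12 member windows (30.8%, against 6.49% of all windows), the CCA1 binding site in 4 (10.3%, against 3.25%), a LUX site in 8 (20.5%, against 12.1%) and the TCP site in 1, that of CCA1 (2.56%, against 0.372%). Of the 10 genes with an evening element PRR5 fell and BOA rose, while the other 8 did not pass. By limma 10.5% of all tested members and 2.06% of all tested genes were called. A tie between motif and call was not tested.

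The dawn factors did not pass. CCA1 had 144 and 169 normalised reads in bdt1, against 131 and 143 in Col-0, and LHY had 597 and 618 in bdt1, against 483 and 527 in Col-0. Both were above Col-0 in each mutant library, by 0.19 (95% interval -0.17 to 0.55) and 0.27 (0.07 to 0.46) on the log2 scale, with limma adjusted p = 0.60 and adjusted p = 0.17.

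Among the other PRR genes, TOC1, the evening member that represses CCA1, differed least, with 2849 and 2889 normalised reads in bdt1 and 2939 and 2974 in Col-0. Its log2 fold change was -0.04 with a 95% interval of -0.16 to 0.08. PRR7, a daytime repressor, had 88.4 and 81.2 in bdt1, against 111 and 116 in Col-0, a log2 difference of -0.42 (SE 0.18, adjusted p = 0.29). PRR3, known to stabilise TOC1 protein, had 844 and 853 in bdt1, against 760 and 657 in Col-0, a log2 difference of 0.26 (SE 0.09, adjusted p = 0.18). PRR9, a repressor of the morning, was near the limit of detection, with 5 and 4 recovered reads in bdt1, against 3 and 0 in Col-0. In all 5 PRR genes the genotypes did not overlap, a state found in 48.9% of tested genes (25.2% higher, 23.7% lower) and in 21 of 38 members (55.3%, with 10 higher and 11 lower), and PRR5 alone passed the test.

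Within the evening complex, ELF4, a small protein, had 1033 and 1045 normalised reads in bdt1, against 870 and 823 in Col-0. Its replicates agreed within each genotype and the difference was small, 0.30 as a log2 difference (SE 0.07, limma adjusted p = 0.071). ELF3, the scaffold of the complex, had 2820 and 2632 in bdt1 and 2666 and 2989 in Col-0. LUX, its DNA-binding subunit, had 965 and 990 in bdt1 and 1083 and 926 in Col-0, so both overlapped between genotypes. The interval of the LUX difference ran from -0.23 to 0.16 on the log2 scale. LUX and AT3G46650 overlap on opposite strands over 1507 bases, and AT3G46650 had 8 and 11 recovered reads in bdt1 and 0 and 12 in Col-0.

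None of the 8 RVE genes passed. RVE8, an activator of evening genes, had 480 and 518 normalised reads in bdt1 and 434 and 521 in Col-0, and its relatives RVE4 and AT5G52660 had log2 fold changes of 0.05 (SE 0.08) and -0.16 (SE 0.12). RVE1, which links the clock to auxin, had 371 and 405 in bdt1, against 501 and 814 in Col-0, and the gap between the wild-type libraries (0.70 on the log2 scale) was nearly as wide as the difference between genotypes (-0.72, SE 0.19, adjusted p = 0.11). ASG4, an RVE-family gene of low level, had 68.4 and 62.6 in bdt1, against 12.9 and 35.3 in Col-0, or 1.56 on the log2 scale (SE 0.43, adjusted p = 0.12). Each of these genes depended on the Col-0 libraries. By limma the log2 fold change of RVE1 was -1.07 without Col-0 replicate 1, and that of ASG4 was 2.25 without Col-0 replicate 2. By edgeR, RVE1 ran from -1.07 to -0.37 with a library left out, and it was not called with all libraries (adjusted p = 0.072). RVE2, RVE7 and AT4G01280 had log2 fold changes of -0.14, 0.22 and -0.08, and all 3 overlapped between genotypes.

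The LNK co-activators did not pass either. LNK2 had 340 and 352 normalised reads in bdt1 and 323 and 381 in Col-0, and LNK1 had 84.1 and 67.5 in bdt1 and 84.2 and 53.7 in Col-0. LNK3, at 27.3 and 17.6 in bdt1 against 10.6 and 11.0 in Col-0, was the one LNK gene without overlap (log2 fold change 0.96, SE 0.40, adjusted p = 0.29). LNK4 had 6 and 7 recovered reads in bdt1 and 13 and 6 in Col-0.

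GI, a large scaffold protein of the day-length pathway, had 178 and 233 normalised reads in bdt1 and 199 and 175 in Col-0. ZTL, an F-box photoreceptor that marks TOC1 and PRR5 protein for degradation, had 1188 and 1237 in bdt1 and 1160 and 1221 in Col-0. FKF1, its relative that removes CDF proteins, had 330 and 315 in bdt1 and 332 and 316 in Col-0. These 3 genes overlapped between genotypes. The 95% intervals of their log2 differences ran from -0.24 to 0.50 for GI, from -0.12 to 0.18 for ZTL and from -0.24 to 0.22 for FKF1. LKP2, the third gene of the family, had a log2 fold change of -0.09 (SE 0.09).

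All 4 output genes were lower in both bdt1 libraries than in both Col-0 libraries, where 23.7% of tested genes were, and AT4G33980 alone passed. GRP7, an RNA-binding protein that damps its own transcript through the day, had 10776 and 10297 normalised reads in bdt1, against 13128 and 11244 in Col-0. Its near copy GRP8 had 3124 and 3045 in bdt1, against 3853 and 3231 in Col-0. The log2 fold changes were -0.21 (SE 0.07, limma adjusted p = 0.22) for GRP7 and -0.19 (SE 0.08, adjusted p = 0.28) for GRP8, and reads shared by such similar genes could be split between them. COR27, a cold-induced gene, had 298 and 329 in bdt1, against 341 and 393 in Col-0 (log2 fold change -0.22, SE 0.11, adjusted p = 0.38). The 95% interval for COR27, -0.48 to 0.04, and that for AT4G33980, -0.83 to -0.35, overlap, and the difference between the 2 genes was not tested.

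In the day-length branch no gene passed. CO had 76.7 and 60.6 normalised reads in bdt1, against 56.0 and 53.2 in Col-0, a log2 difference of 0.32 (SE 0.23 and limma adjusted p = 0.54). FT, its target, had 105 and 117 in bdt1, against 83.4 and 69.5 in Col-0 (log2 fold change 0.54, SE 0.19, adjusted p = 0.22). CDF1, a repressor of CO, had 183 and 184 in bdt1, against 172 and 172 in Col-0, with a 95% interval of -0.20 to 0.39 for the log2 difference. CDF2 and CDF3 had log2 fold changes of 0.04 each, and COL2, a relative of CO, 0.27 (SE 0.16). AT1G69570, of the CDF group, had 7 and 2 recovered reads in bdt1 and 5 and 7 in Col-0.

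COL1, the neighbour of CO on chromosome 5, was the one member that did not reach the mean of 1, with 0 reads in all 4 libraries, which allows up to 3 reads in each for counting error. COL1 extends from 5176091 to 5177897 on chromosome 5 (TAIR10.1), and AT5G15845, a long non-coding RNA gene on the opposite strand, covers all 1807 bases of it. AT5G15845 had 12 and 10 recovered reads in bdt1 and 13 and 11 in Col-0. CO itself overlaps AT5G15843 over 1967 bases on the opposite strand, and AT5G15843 is listed at 0 in all 4 libraries. AT4G01280 overlaps the far higher AT4G01290 over 681 bases, and COL2 overlaps AT3G02370 over 771 bases. ASG4 overlaps the far higher AT1G01510 on the same strand over 65 bases. AT1G01510 had 1040 and 1045 normalised reads in bdt1 and 1242 and 1112 in Col-0. LNK1 overlaps the higher AT5G64160, on the opposite strand, over 245 bases. The part that overlapping genes play in these values was not tested, so the 0 of COL1 is not read as absence of the transcript.

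**Figure D2:**
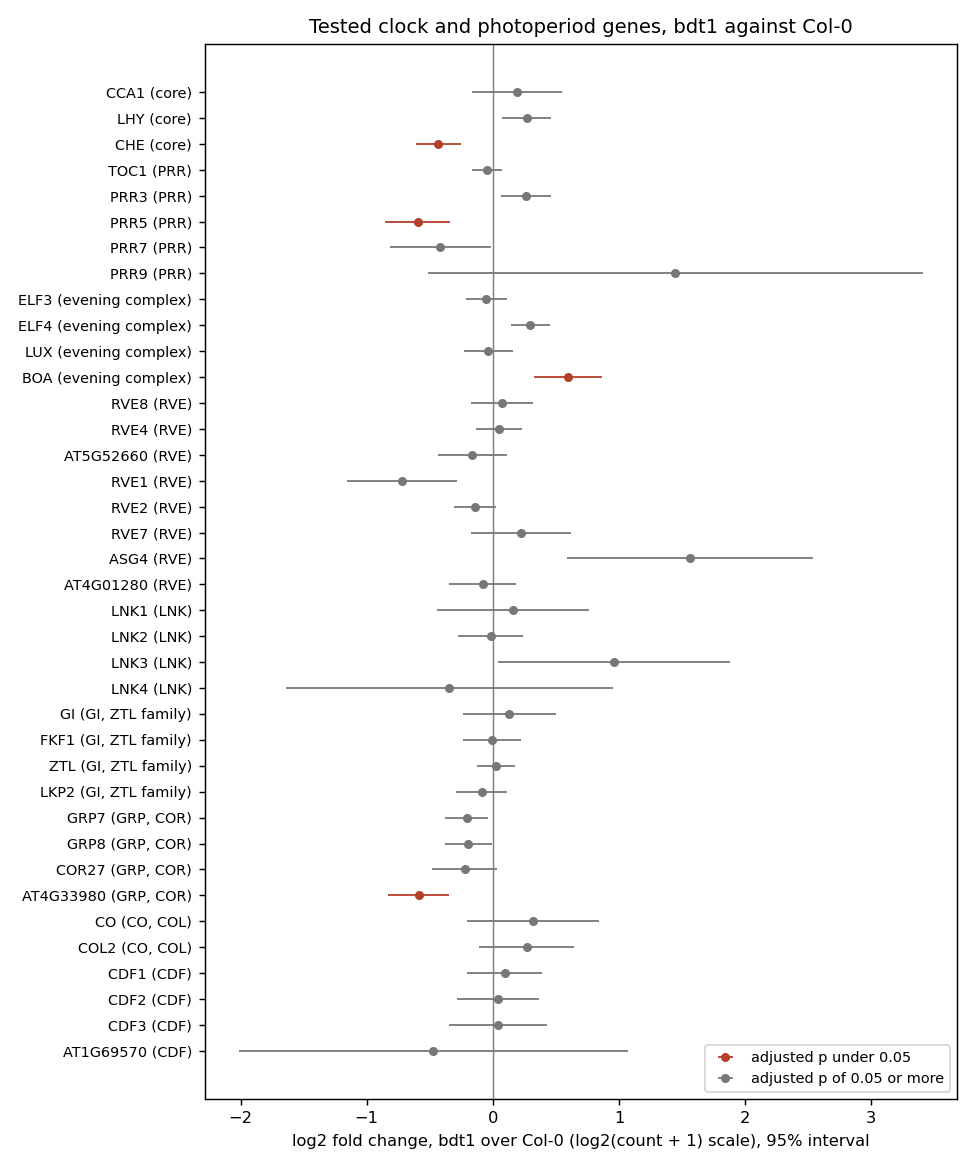
Log2 fold change of bdt1 over Col-0 with its 95% interval (horizontal axis, log2(count + 1) scale) for the 38 tested genes, grouped by role from top to bottom. The 4 genes in red passed an adjusted p under 0.05, with PRR5, CHE and AT4G33980 left of 0 and BOA right of it, and the widest intervals belong to the low genes PRR9, AT1G69570 and LNK4.

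Levels between genes were compared as normalised reads per kb of exon. GRP7 stood first, at 9044 in bdt1 and 10460 in Col-0, followed by RVE2 (6500 in bdt1 and 7185 in Col-0) and GRP8 (2792 in bdt1 and 3205 in Col-0). ELF4, TOC1 and ELF3 came next, at 1679, 1022 and 992 in bdt1 and 1367, 1053 and 1028 in Col-0. CCA1 lay far lower, at 57.7 in bdt1 and 50.4 in Col-0, and PRR9 was lowest among detected members, at 2.14 in bdt1 and 0.731 in Col-0.

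Members were also grouped by the time of day at which they are known to peak, as a description of each library. Evening-phased members, which include PRR5 of the afternoon, were TOC1, PRR3, GI, ELF3, ELF4, LUX, BOA, FKF1, COR27, AT4G33980, GRP7 and GRP8. Morning-phased members tested were CCA1, LHY, RVE8, RVE4, AT5G52660, RVE1, RVE2, RVE7, LNK1, LNK2, LNK3, LNK4, PRR9, CDF1 and COL2. Other tested members were in neither list. The mean log2 level per kb of 13 evening-phased members was 8.74 and 8.76 in bdt1, against 8.82 and 8.78 in Col-0. That of 15 tested morning-phased members was 6.48 and 6.46 in bdt1, against 6.42 and 6.21 in Col-0. Evening-phased genes were therefore higher than morning-phased genes in every library, by 2.26 and 2.30 in bdt1 and by 2.40 and 2.57 in Col-0. Both bdt1 libraries had a smaller difference than both Col-0 libraries, and no test was run on these means. PRR9 and LNK4, at 13 reads or fewer in every library, weigh on them. Without these genes, a choice made after seeing the data, evening minus morning was 1.54 and 1.56 in bdt1 and 1.72 and 1.66 in Col-0. With LNK3 also left out it was 1.28 and 1.25 in bdt1 and 1.36 and 1.31 in Col-0, and the morning means were 7.47 and 7.51 in bdt1 and 7.46 and 7.47 in Col-0. Of the 13 evening-phased genes, BOA rose and PRR5 and AT4G33980 fell (3 called, or 23.1%). Of the 15 morning-phased genes, 0 passed by limma or by edgeR. Among all tested genes, 2.06% were called by limma and 2.57% by edgeR. With shares this low, 0 of 15 is not read as a trait of the morning-phased genes. At an unadjusted p under 0.05 by limma there were 7 of 13 evening-phased genes (53.8%, with 3 higher and 4 lower). There were 3 of 15 morning-phased genes (20%, with 2 higher and 1 lower), against 16.4% of all tested genes. The part that the higher level of the evening-phased genes plays in these counts was not tested.

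**Figure D3:**
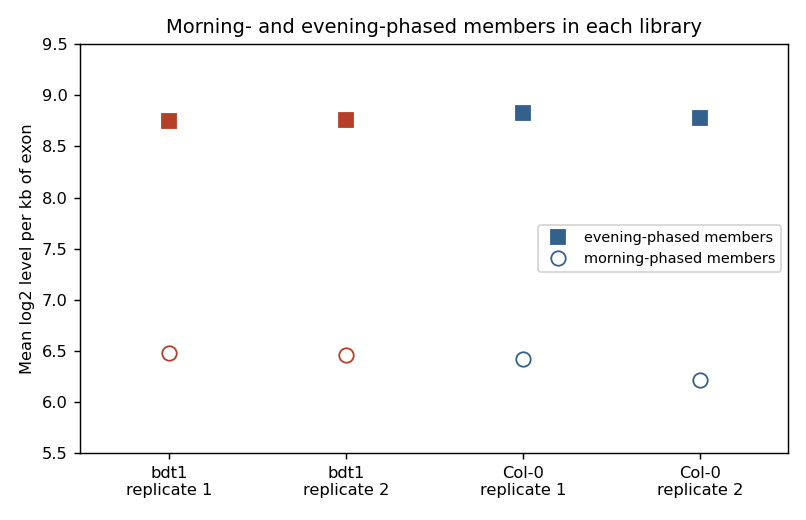
Mean log2 level per kb of exon (vertical axis, not starting at 0) of 13 evening-phased and 15 morning-phased members in each library, bdt1 in red and Col-0 in blue. The evening-phased group lies between 8.74 and 8.82 and the morning-phased group between 6.21 and 6.48, where the low point of Col-0 replicate 2 is not seen once PRR9 and LNK4 are left out.

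Over all tested genes the first principal component (49.2% of the variance) separated the genotypes and the second (27.4%) separated the 2 Col-0 libraries from each other. The members too varied more between the 2 Col-0 libraries than between the 2 bdt1 libraries. The median gap between replicates, on the log2 scale, was 0.10 in bdt1 and 0.19 in Col-0 over the 38 members, against 0.11 in bdt1 and 0.14 in Col-0 over all tested genes. The Col-0 gap was the wider in 27 of 38 members. In 23 of 38 members the gap between replicates of at least 1 genotype was wider than the difference between genotypes. None of the 4 called genes was among them, which the test largely fixes, since it weighs the difference against the replicate spread. The matching shares over all tested genes were not counted, so neither count is read as a trait of the members.

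**Figure D4:**
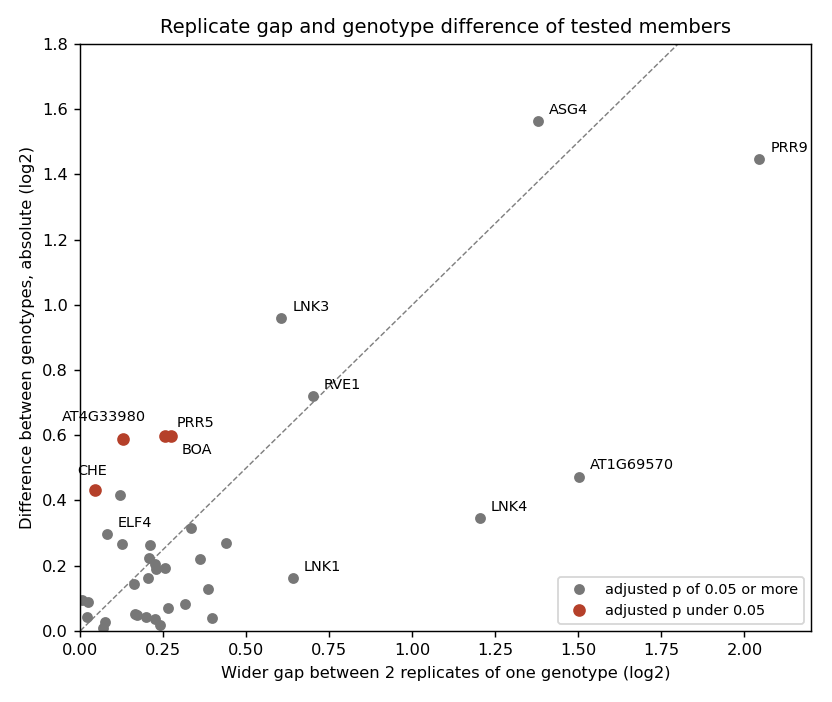
Absolute log2 difference between genotypes (vertical axis) against the wider of the 2 replicate gaps (horizontal axis, log2) for the 38 tested members, with the dashed line marking equality. The 4 called genes, in red, lie above the line, which the test favours, while 23 members lie below it, among them PRR9, LNK1, LNK4 and AT1G69570.

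Further genes around the pathway were taken from lists. Of 14 tested further clock genes, 0 passed by limma or by edgeR, and 3 (21.4%) were at an unadjusted p under 0.05 by limma, near the 16.4% of all tested genes. Their median log2 fold change was -0.09. Of 14 photoreceptor and light-signalling genes, which include the phytochromes and cryptochromes, 0 passed by limma or edgeR (2 at an unadjusted p under 0.05, or 14.3%, against 16.4% of all tested genes), with log2 fold changes from -0.23 to 0.22. Of 8 PIF, HY5 and related factors, 0 passed by limma or edgeR, and 0 were at an unadjusted p under 0.05. Of 11 further B-box genes, the family of CO, 0 passed by limma or edgeR and 3 (27.3%, against 16.4% of all tested genes) were at an unadjusted p under 0.05. Of these 11 genes 10 had a negative log2 fold change, with a median of -0.18, where 11456 of all 23256 tested genes were negative and the median was 0.00. COL9, known to repress CO, had the lowest adjusted p among them, at 2024 and 2137 normalised reads in bdt1, against 2414 and 2884 in Col-0 (log2 fold change -0.34, SE 0.08, limma adjusted p = 0.087), and DESeq2 called it (adjusted p = 0.033). A list of 15 genes around CO and FT, which holds FT and TSF beside regulators, had 0 higher and 2 lower by limma and by edgeR. These 2 are 13.3%, against 2.06% of all tested genes called by limma. At an unadjusted p under 0.05 by limma there were 6 (40%, against 16.4%). The list was chosen with earlier results of these data known. The 2 that fell were TEM1 and TEM2, repressors of FT. TEM1 had 397 and 680 normalised reads in bdt1, against 1247 and 2142 in Col-0. TEM2 had 455 and 608 in bdt1, against 1639 and 2673 in Col-0. The log2 fold changes were -1.65 (SE 0.28, adjusted p = 0.025) and -1.99 (SE 0.21, adjusted p = 0.0034), larger in size than those of the 4 called members. DESeq2 did not call TEM1 (adjusted p = 0.073), nor did limma without Col-0 replicate 2 (-1.26, adjusted p = 0.082), and without limma's trend neither gene was called (adjusted p = 0.34 for TEM1 and 0.23 for TEM2).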

How the data were processed

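RNA from 10-day-old seedlings was sequenced in paired-end reads of 150 bases, per the labels' protocols. HISAT2 2.2.0, edgeR and the TAIR10 build are named per the submitters' processing notes. For the read counter, annotation version and strandedness the sources used here give nothing. Deposited signal values are normalised read counts per gene, not divided by length, in the form of edgeR pseudo-counts at 1 common library size. Fitting library sizes and a dispersion per genotype (0.00544 in both) and inverting that adjustment gave whole reads for 100% of values within 0.001 reads. The inversion was also run on simulated data made with the same edgeR adjustment. That run checks the inversion only, not how the deposited values were made.

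Because the values are not raw counts, limma 3.58.1 (R 4.3.3) was fitted to log2(value + 1) with its variance trend, without a block, on genes with a mean of at least 1. P-values, two-sided, were adjusted by Benjamini-Hochberg over the 23256 genes tested, and 0.05 was the threshold. Log2 fold changes refer to log2(value + 1), which understates changes of low genes. An exact permutation test of 2 against 2 libraries cannot go below p = 0.333, so none was used. edgeR 4.0.16 and DESeq2 1.42.0 were run on recovered counts as alternatives, along with other scalings, filters, pseudocounts, a replicate block and each library left out. Leave-one-out fits with edgeR were added after seeing the data. In a fit with 1 library of a genotype, that library is assumed to vary like the other genotype's.

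Replicate numbers did not pair the libraries: no label ties them, and the gaps between replicates correlated at -0.01 between genotypes. The members and lists were chosen with earlier results of these data known. All members are named; from each further list, up to 4 called genes were to be named, and COL9 was chosen after its values were seen. All 32548 identifiers matched the RefSeq annotation of TAIR10.1, which gave symbols, positions and exon lengths, while the table holds no coordinates. For 4 members RefSeq gives no symbol or synonym in use here. Amplified reads do not each stand for a separate molecule, so a floor of 3 reads covers counting error only. Annotation and plots used Python 3.11.15. Promoter sequences of the other members are not reported here.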

Additional observations from a re-analysis of the deposited data

How the results depend on the processing

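BOA stayed positive and PRR5, CHE and AT4G33980 negative under all alternatives run, with leave-one-out log2 fold changes by limma of 0.46 to 0.73 for BOA, -0.72 to -0.47 for PRR5, -0.46 to -0.41 for CHE and -0.65 to -0.52 for AT4G33980. TMM scaling, quantile normalisation, other filters and a pseudocount of 5 kept all 4 calls. A pseudocount of 0.1 ended those of PRR5 (adjusted p = 0.056) and BOA (adjusted p = 0.062), leaving 0 members higher and 123 genes lower in all; DESeq2 ended that of CHE (adjusted p = 0.059). Without limma's trend 42 genes were higher and 6 lower in all, with 0 members in either direction (2937 genes at an unadjusted p under 0.05; edgeR called 598). With quantile normalisation the median of evening-phased members was -0.0079 in place of -0.0435. With the replicate block, which nothing in the labels supports, 901 genes were higher and 917 lower, and 4 and 6 members, with ASG4, GRP7, ELF4, GRP8, RVE1 and PRR3 gained.

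With 1 library left out, limma called 0 to 540 genes higher and 0 to 776 lower, with 0 to 3 members higher and 0 to 4 lower. Limma called 0 genes without bdt1 replicate 1 or bdt1 replicate 2 (1573 and 1611 at an unadjusted p under 0.05), where edgeR called 501 and 584. With edgeR, an alternative chosen after seeing the data, 922 genes were higher and 1308 lower without Col-0 replicate 1 and 1226 and 1273 without Col-0 replicate 2, lower calls were 305 without bdt1 replicate 2, and members ranged from 0 to 4 higher and from 2 to 6 lower. The median log2 fold change of all tested genes ranged from -0.0059 to 0.0065 and that of the members from -0.0309 to 0.0347. Signs of members not called changed in 2 (LUX and CDF3, quantile normalisation) and in 2 to 6 with a library left out, and in 0 under the other settings. The cause was not tested. At single-digit reads per library, AT1G69570 allowed no firm direction and ranged from -1.22 to 0.28 by limma with a library left out.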
